A study of Homo sapiens with 4 samples.

Results

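The 10 transcripts described here encode IRE1 and ATF6, the stress sensors of the endoplasmic reticulum (ER) that act through the transcription factors XBP1 and cleaved ATF6, with their relatives and processing enzymes. They were taken by gene symbol from the 56271 rows of the count table, and all 10 symbols were found: ERN1 (which encodes IRE1), XBP1, ATF6, ATF6B, MBTPS1 and MBTPS2 (the site-1 and site-2 proteases), CREB3, CREB3L2, CREB3L4 and CREBRF. The cells were SKBR3, a HER2-positive breast cancer cell line, and their poly-A RNA was sequenced in 2 libraries labelled eGFP control and 2 labelled VIRMA-overexpressing. VIRMA is a subunit of the methyltransferase complex that places m6A on mRNA. Per the study's methods, both cell populations had been transduced with a lentiviral vector and sorted for eGFP. The control vector carried eGFP under the human ubiquitin C promoter, the other carried HA-tagged full-length VIRMA with eGFP, and the cells were sorted and expanded populations rather than single clones. For all 4 libraries alike the labels describe culture in a low-oxygen chamber followed by lysis for protein, so the oxygen level behind the RNA is uncertain. The labels do not say whether the replicates of a group were separate cultures, and the study's methods call them biological duplicates; p-values measure only the spread between these libraries, which may be technical.

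IRE1 and ATF6 sit in the ER membrane and respond when unfolded proteins accumulate in the ER lumen. IRE1 is a kinase and an endoribonuclease. It cuts a short stretch out of the XBP1 mRNA, and the rejoined message encodes the active transcription factor, which raises genes of protein import, folding and transport. ATF6 instead travels to the Golgi, where the site-1 and site-2 proteases cut it in turn and release its cytosolic part as a transcription factor for ER chaperones. ATF6B and the CREB3 proteins are membrane-anchored factors released in a like manner, and the same proteases process the SREBP factors of lipid synthesis. CREBRF is a nuclear factor that recruits CREB3 and promotes its loss.

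The stretch that IRE1 removes from XBP1 lies in exon 4, inside the coding sequence, at about chr22:28796124-28796149 (GRCh38, minus strand). It is shown because the counts could not tell the cut message from the uncut one. In the line that follows 26 bases are in capitals and the 2 flanking bases on each side in lower case. The position was found by placing the study's primer for the spliced form on the GENCODE transcripts. Because bases at the ends of the stretch repeat, placements shifted by a few bases give the same joined message. The one shown was picked among them by an assumed cut-site pattern, and the true cuts may lie a few bases away.
XBP1: agCACTCAGACTACGTGCACCTCTGCAGca
These 26 bases were 0.859% of the 3028 exonic bases over which XBP1 reads were counted. Of the 6 annotated XBP1 transcripts, 4 contain the stretch and 1 is joined across it. XBP1 values given here are therefore total XBP1 mRNA and carry no information on splicing.

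The libraries held 85389375 and 86375474 counts (controls) and 82942841 and 81446932 counts (VIRMA-overexpressing). The control libraries held 710 and 682 counts of VIRMA and the others 3437 and 3460, and its log2 fold change was 2.29 with an SE of 0.0685 (edgeR adjusted p 9.74e-26). The 6 SKBR3 markers (ERBB2, GRB7, KRT8, KRT18, KRT19 and EPCAM) lay between 143.6 and 8317 CPM (counts scaled to library size) in every library; 2 of them were higher, 3 lower and 1 did not pass, at log2 fold changes of -0.51 (KRT8) to 0.43 (GRB7). Mitochondrial genes took 11.4% and 11.6% of counts in the controls and 12.8% in both others. The summed level of 8 erythroid markers was 20.3 to 28.0 CPM in the controls against 0.323 to 0.479 CPM with VIRMA overexpression, with all 8 higher in both controls and most of the sum in HBB, which was at 0 counts in both VIRMA-overexpressing libraries, and that of 10 leukocyte markers was 4.37 to 5.17 and 4.34 to 4.52 CPM. MS4A1 was at 0 counts in every library. The source of these erythroid marker reads, and the part of the marker and mitochondrial differences in the results, was not tested.

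Of the 10 genes, 9 passed the filter of an RPKM (reads per kilobase of exon, scaled to library size) above 1, and each of these did so in all 4 libraries. CREBRF passed in none and was tested with a milder filter. At an adjusted p below 0.05 (edgeR quasi-likelihood test, adjusted over all 12205 tested genes), 7 of the 9 genes were higher in VIRMA-overexpressing cells and 0 lower, where 35.1% of all tested genes were higher and 35.9% lower. The 2 that did not pass were MBTPS2 and CREB3, whose unadjusted p values were 0.115 and 0.0983; DESeq2 also called 0 of the 9 lower. With the further requirement of a 2-fold difference, 1 gene, ERN1, was higher and 0 were lower, against 4.52% and 2.93% of all tested genes. The median log2 fold change over the 9 genes was 0.21 and that over all tested genes 0.01. Since about 7 in 10 genes differed between these groups at the adjusted p alone, the sizes of the differences are given beside each call.

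**Figure D1:**
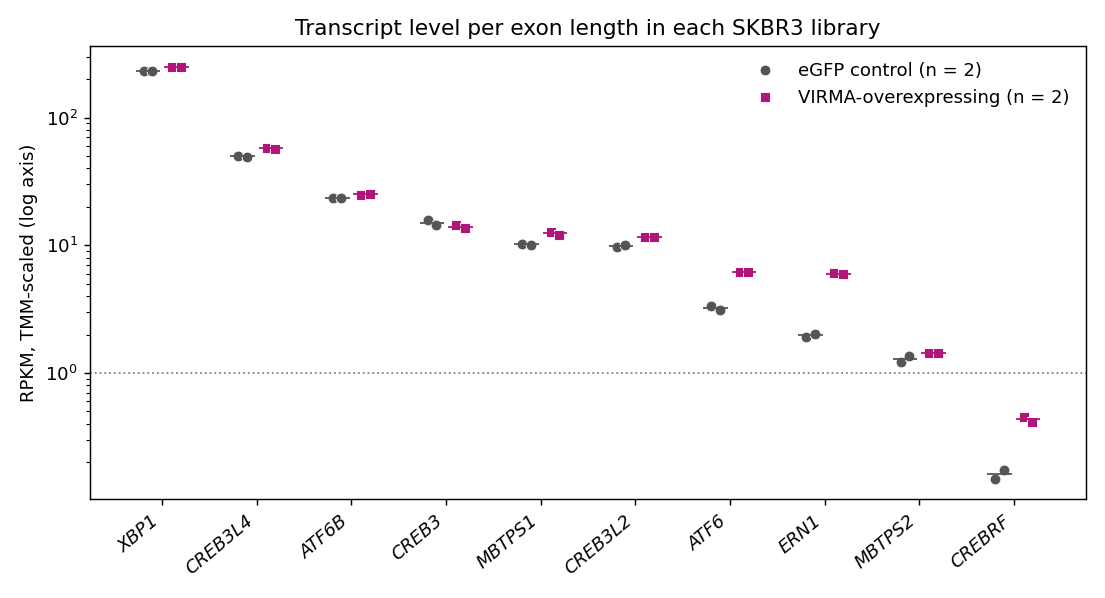
RPKM (scaled with TMM, log axis) of the 10 genes in each of the 4 libraries, with eGFP control libraries as grey circles, VIRMA-overexpressing libraries as magenta squares and group means as short lines; the dotted line marks an RPKM of 1. XBP1 was highest at 231.4 to 251.3 and CREBRF lowest at 0.149 to 0.453, and the groups stand visibly apart at ERN1, ATF6 and CREBRF.

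Levels per exon length spanned a wide range. In the controls mean RPKM was 232.5 ± 1.61 for XBP1 (SD, n = 2), 49.7 ± 0.605 for CREB3L4, 23.4 ± 0.0470 for ATF6B and 15.1 ± 0.890 for CREB3. MBTPS1 (10.2 ± 0.174) and CREB3L2 (9.88 ± 0.271) came next, and their control libraries overlapped. ATF6 was at 3.25 ± 0.144, ERN1 at 1.97 ± 0.0709, MBTPS2 at 1.29 ± 0.0997 and CREBRF at 0.162 ± 0.0185. XBP1 thus ranked above 98.7% of the tested genes in the controls, whereas the sensors ATF6 and ERN1 ranked above 39.4% and 25.01%. In VIRMA-overexpressing cells ATF6 (6.21 ± 0.0373) and ERN1 (6.00 ± 0.106) lay close together, with libraries at 6.24 and 6.19 RPKM for ATF6 and 6.08 and 5.93 for ERN1. The order of the 10 group means was the same in both groups.

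ERN1, which encodes the sensor kinase and endoribonuclease IRE1 (GRCh38 chromosome 17, 64039142 to 64130819, minus strand), showed the largest difference of the 9 tested genes. Reads assigned to ERN1 numbered 1735 and 1837 in the controls against 5652 and 5382 with VIRMA overexpression, or 20.9 and 21.95 CPM against 66.0 and 64.4 CPM. Both VIRMA-overexpressing libraries lay well above both controls, and the replicates of a group differed by 5.09% and 2.49% of their mean. The log2 fold change was 1.61 (95% interval 1.50 to 1.71, edgeR adjusted p 3.79e-25), or 3.05-fold, which was larger than that of 98.8% of the tested genes. ERN1 also passed when the difference was itself tested against 2-fold (edgeR glmTreat adjusted p 4.87e-13), as 1.55% of all tested genes did in this direction.

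XBP1 (chromosome 22, 28794555 to 28800597, minus strand), the transcription factor whose message IRE1 cuts, changed little in total abundance. Reads assigned to XBP1 numbered 58279 and 59221 in the controls against 65042 and 63603 with VIRMA overexpression, or 700.7 and 707.6 against 759.6 and 760.9 CPM. The groups did not overlap. The difference was 8.0% of the control level on the linear scale, a log2 fold change of 0.11 (95% interval 0.06 to 0.17, edgeR adjusted p 0.000441). Its direction and call held under all alternatives run, but its size depended on scaling and filter, from 0.067 with edgeR's filterByExpr to 0.19 with library totals alone. By RPKM, XBP1 exceeded ERN1 120.5-fold and 115.7-fold in the controls against 41.3-fold and 42.4-fold with VIRMA overexpression.

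ATF6 (chromosome 1, 161766294 to 161964070, plus strand) had 2198 and 2077 counts (controls) and 4216 and 4081 counts (VIRMA-overexpressing), or 26.4 and 24.8 CPM against 49.2 and 48.8 CPM, so that the lower VIRMA-overexpressing library was well above the higher control. The log2 fold change was 0.94 (95% interval 0.83 to 1.04, edgeR adjusted p 1.34e-17), or 1.91-fold, just under the 2-fold threshold, which it crossed with upper-quartile factors (1.008) and with library totals alone (1.02). Its relative ATF6B (chromosome 6, 32098176 to 32128253, minus strand), which binds the same promoter elements but activates them weakly, was at 85.6 and 85.8 CPM (controls) and 91.1 and 92.2 CPM (VIRMA-overexpressing). The log2 fold change of ATF6B was 0.10 (95% interval 0.02 to 0.17, edgeR adjusted p 0.0214), and this call was lost under DESeq2 (adjusted p 0.0504), with the 3 other filters, and without eGFP control replicate 1 or 2 or VIRMA-overexpressing replicate 2 (edgeR adjusted p 0.0805, 0.0566 and 0.0981). By RPKM, ATF6B exceeded ATF6 6.98-fold and 7.46-fold in the controls against 3.99-fold and 4.07-fold with VIRMA overexpression.

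**Figure D2:**
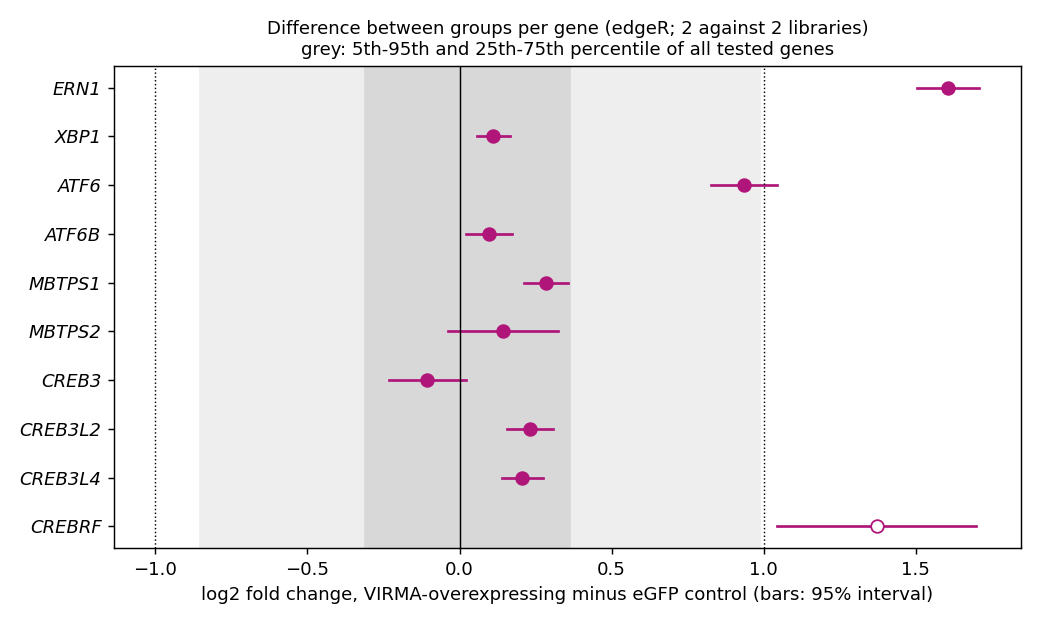
Log2 fold change of each gene (VIRMA-overexpressing minus eGFP control, 2 libraries each) with its 95% interval from edgeR; filled points come from the fit with the RPKM filter and the open point, CREBRF, from the fit with filterByExpr. The dark and light grey bands hold the middle 50% (-0.31 to 0.36) and 90% (-0.85 to 0.99) of all tested genes: ERN1 at 1.61 lies outside both bands, ATF6 at 0.94 inside the light band only, and the other tested genes inside the dark band.

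MBTPS1, the site-1 protease that makes the first cut in ATF6 (chromosome 16, 84053761 to 84116906, minus strand), had 8779 and 8623 counts (controls) and 11134 and 10358 counts (VIRMA-overexpressing), or 104.3 ± 1.78 and 127.0 ± 4.33 CPM (SD, n = 2). The groups did not overlap in CPM, and the log2 fold change was 0.28 (95% interval 0.21 to 0.36, edgeR adjusted p 1.24e-08), a rise of 21.75% in linear terms. MBTPS2, the site-2 protease that makes the second cut within the membrane (chromosome X, 21839636 to 21885424, plus strand), was at 10.9 and 12.2 CPM in the controls against 12.7 and 12.8 CPM with VIRMA overexpression. Its log2 fold change of 0.14 did not pass (95% interval -0.04 to 0.32, edgeR adjusted p 0.147), and the interval includes the value of MBTPS1. The spread between the MBTPS2 control libraries, 10.9% of their mean, was about as large as the difference between groups, 10.5%, and its log2 fold change was 0.063 without eGFP control replicate 1 and 0.22 without eGFP control replicate 2. MBTPS2 passed with upper-quartile factors (0.22, edgeR adjusted p 0.0312) and with library totals alone (0.23, edgeR adjusted p 0.0233). Of its exonic bases, 12.2% are shared with YY2 on the same strand, so reads there belong to either gene.

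Among the CREB3 factors, CREB3L2 and CREB3L4 rose slightly and CREB3 did not pass. CREB3L2, a factor for secretory pathway genes in cells that export much matrix (chromosome 7, 137874979 to 138002067, minus strand), was at 85.1 and 88.5 CPM (controls) and 102.1 and 101.7 CPM (VIRMA-overexpressing), a log2 fold change of 0.23 (95% interval 0.16 to 0.31, edgeR adjusted p 1.22e-06). CREB3L4, a CREB3 relative known from prostate and breast epithelium (chromosome 1, 153967534 to 153974363, plus strand), was at 145.7 and 143.2 CPM against 168.2 and 164.9 CPM, a log2 fold change of 0.21 (95% interval 0.14 to 0.27, edgeR adjusted p 1.02e-06). In both genes the VIRMA-overexpressing libraries were above the controls. CREB3, also called Luman (chromosome 9, 35732335 to 35737004, plus strand), was at 29.8 and 27.4 CPM in the controls against 27.4 and 25.8 CPM with VIRMA overexpression. The higher VIRMA-overexpressing library of CREB3 (27.42 CPM) all but equalled the lower control (27.43 CPM). The log2 fold change of CREB3 was -0.11 (95% interval -0.23 to 0.02, edgeR adjusted p 0.128); without eGFP control replicate 2 it was -0.17 and passed (edgeR adjusted p 0.0443). CREB3L4 shares 9.64% of its exonic bases with SLC39A1 and 3.27% with JTB, and CREB3 shares 7.30% with GBA2 and 3.21% with TLN1, all on the opposite strand, and whether the counting used strand is not stated.

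CREBRF (chromosome 5, 173056352 to 173139284, plus strand), the recruitment factor of CREB3, was the rarest of the 10 transcripts. Reads assigned to CREBRF numbered 153 and 181 in the controls against 478 and 426 with VIRMA overexpression, or 1.84 and 2.16 against 5.58 and 5.10 CPM. Both VIRMA-overexpressing libraries were above both controls, and the replicates differed by 16.15% of their mean in the controls against 9.11% with VIRMA overexpression. With filterByExpr, which kept 20568 genes, the log2 fold change was 1.37 (SE 0.156, 95% interval 1.04 to 1.70, edgeR adjusted p 3.31e-07), or 2.59-fold. By adjusted p and 2-fold together 5.08% of those genes were called higher. Tested against 2-fold, CREBRF did not pass (edgeR glmTreat adjusted p 0.120).

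Without regard to a test, both VIRMA-overexpressing libraries lay above both controls in 9 of the 10 genes and below them in 1, CREB3. Over the 9 tested genes these numbers were 8 and 1, where 42.7% of all tested genes were wholly higher and 41.6% wholly lower. The 3 relatives outside the set were read alongside. CREB3L1, the factor nearest to CREB3L2, was at 10.1 and 9.85 CPM (controls) and 19.0 and 17.4 CPM (VIRMA-overexpressing), and its log2 fold change was 0.87 with an SE of 0.0832 (edgeR adjusted p 1.64e-11). ERN2, the gut form of IRE1, had 14 and 0 counts against 7 and 12, and CREB3L3, a liver factor, had 0 and 2 against 5 and 0. At this depth no difference could be read for either.

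Because the members of a pair are measured in the same library, their ratio does not depend on how libraries are scaled. The 4 ratios were compared between groups. The log2 ratio of ERN1 to XBP1 rose from -6.88 ± 0.0419 to -5.39 ± 0.0271 (SD, n = 2), and that of ATF6 to ATF6B from -2.85 ± 0.0670 to -2.01 ± 0.0207; in both, each VIRMA-overexpressing library was above each control. The exact two-sided permutation test over libraries gave p = 0.33 for each (0.44 adjusted over the 4 ratios), the smallest p that 2 libraries against 2 can give, so these differences are described by their size against the replicate spread. The log2 ratio of MBTPS1 to MBTPS2 was 2.98 ± 0.136 and 3.12 ± 0.0539 (exact permutation p = 0.33, n = 2), a difference of 0.14 that was about the size of the SD in the controls and ran from 0.0412 without eGFP control replicate 2 to 0.23 without eGFP control replicate 1. The log2 ratio of CREB3L2 to CREB3L4 was -2.33 ± 0.0571 and -2.31 ± 0.0168 (exact permutation p = 1, n = 2), with overlapping groups, and its difference of 0.03 reversed without eGFP control replicate 1.

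**Figure D3:**
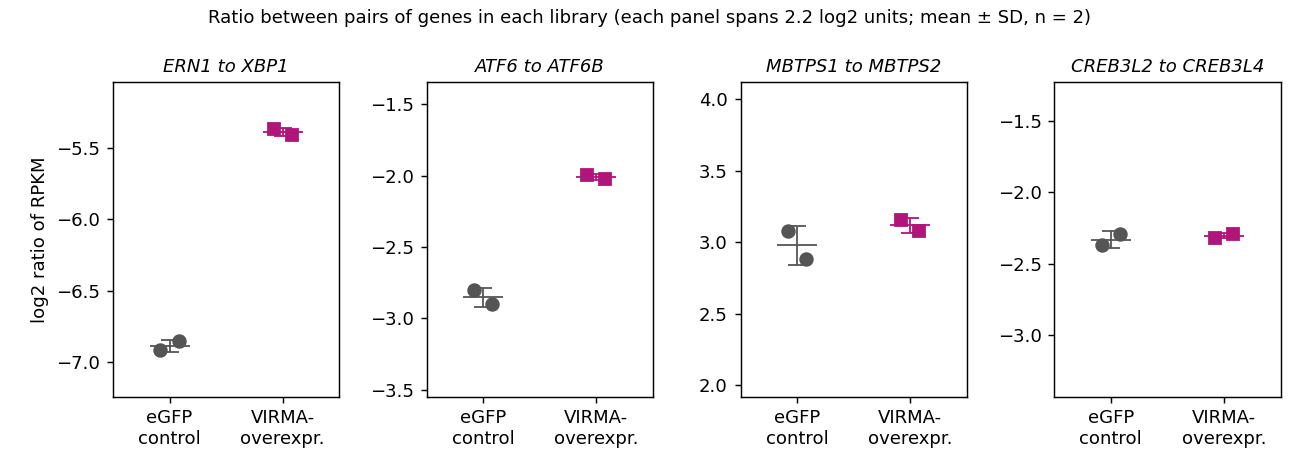
Log2 ratio of RPKM between the genes of each pair in each library (grey circles: eGFP control; magenta squares: VIRMA-overexpressing; lines and bars: mean ± SD, n = 2), each panel spanning the same height. ERN1 to XBP1 and ATF6 to ATF6B stand apart between groups by 1.50 and 0.84, whereas MBTPS1 to MBTPS2 and CREB3L2 to CREB3L4 differ by 0.14 and 0.03.

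The genes that ATF6 and XBP1 are known to raise were read from lists. These lists were chosen with earlier results of these data known, so the counts below are descriptive and no independent support. Of 13 ATF6 targets, 12 were tested and all 12 were higher at an edgeR adjusted p below 0.05, with a median log2 fold change of 1.01 and 6 past 2-fold; XBP1, itself a target of ATF6, was the smallest at 0.11. HERPUD1, an ER membrane protein of the degradation machinery, had 17108 and 16963 counts against 56827 and 55018, and its log2 fold change was 1.70 with an SE of 0.0296 (edgeR adjusted p 8.49e-33). HSPA5, the ER chaperone BiP that holds IRE1 and ATF6 inactive, had 45712 and 45868 against 126528 and 123130, and its log2 fold change was 1.43 with an SE of 0.0262 (edgeR adjusted p 3.78e-32). DERL3 was not tested, with 1 to 15 counts per library. Of 25 XBP1 targets, all tested, 20 were higher, 2 lower and 3 did not pass, with a median of 0.32. DNAJB9, an ER cochaperone that also binds IRE1, was at 1.34 and EDEM1, which directs glycoproteins to degradation, at 1.09. WFS1, an ER membrane protein of calcium handling, was at -0.30 and SEC61B, a subunit of the import channel, at -0.09; the number of lower genes was 1 rather than 2 without eGFP control replicate 2 or without VIRMA-overexpressing replicate 2. These counts stand beside 35.1% higher among all tested genes and their median of 0.01.

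Sequence elements through which ATF6 and XBP1 act were looked for in the RefSeq promoters, as were an ATF4-type and a cAMP response element. The promoters (300 bases each, ending 50 bases after the gene start, GRCh38.p14) included those of all 10 genes. The ER stress element ERSE (CCAAT and CCACG with any 9 bases between, both strands) was in 0.0806% of 27305 promoters and in 1 of the 10, that of XBP1. ERSE-II (ATTGG, any 1 base, CCACG) was in 0.0549% of promoters and in none of the 10, and neither the UPRE core TGACGTG (2% of promoters) nor the ATF4-type element TGATGNAA (3.67%) was in any of them. The letters TGACGTCA, the cAMP response element, were in 1.98% of promoters and in that of CREB3L2. By the same search 5 of the 12 ATF6 targets with a promoter held ERSE, XBP1 included, and 3 held ERSE-II. The UPRE core was in 1 of the 12, HYOU1, and the ATF4-type element in 1, HERPUD1. None of the 12 held the cAMP response element. Matches are printed in capitals with 5 bases on each side in lower case, on the strand of the gene. Shown are those of XBP1 and CREB3L2, and the ERSE or ERSE-II matches of HSPA5 and HERPUD1. The ATF4-type match in HERPUD1 is not printed.
XBP1 (chr22:28800598-28800626, minus strand, ERSE): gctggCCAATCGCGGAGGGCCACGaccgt
HSPA5 (chr9:125241386-125241414, minus strand, ERSE): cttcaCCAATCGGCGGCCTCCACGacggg
HERPUD1 (chr16:56932020-56932040, plus strand, ERSE-II): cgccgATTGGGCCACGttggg
CREB3L2 (chr7:138002253-138002270, minus strand, CRE): ctcggTGACGTCAcagac
The match in XBP1 began 52 bases before the RefSeq gene start and that in HSPA5 66 bases before its own. For XBP1 and CREB3L2 the RefSeq start differs from the gene coordinates given above, which come from the count table. Both hold the element, and the log2 fold changes were 0.11 for XBP1 and 1.43 for HSPA5. ERN1, ATF6 and CREBRF, the members with the largest differences, held none of the 5 elements in these windows. No element was in more than 3.67% of promoters, so holding none is usual. A search for exact letters in 300 bases can also miss elements. Whether any element bears on the differences was not tested.

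The partners and regulators of IRE1 itself formed a further list. Of 18 genes 17 were tested, and 7 (41.2%) were higher, 8 lower and 2 did not pass, near the 35.1% higher and 35.9% lower among all tested genes, with a median log2 fold change near 0 that turned sign with the scaling (0.068 with upper-quartile factors). The 5 genes that also stand in the target lists (HSPA5, DNAJB9, SEL1L, SYVN1 and PDIA6) were all higher, at 0.32 to 1.43. Of the other 12, 2 were higher and 8 lower, between -0.37 and 0.54. The higher ones were MAPK8, the JNK1 kinase, at 0.54 (SE 0.0704) and NCK1, an adaptor protein, at 0.44 (SE 0.0985). The lower ones include TRAF2, the adaptor that links IRE1 to the JNK kinases, at -0.37 (SE 0.0396, edgeR adjusted p 1.87e-10), PTPN1, an ER-bound phosphatase, at -0.35 (SE 0.0382, edgeR adjusted p 3.87e-10), and RTCB, the ligase that rejoins XBP1 mRNA, at -0.29 (edgeR adjusted p 4.27e-05). MAPK8, NCK1 and RTCB were chosen after their values were seen.

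Messages that IRE1 is known to degrade formed another list. Of its 9 genes, 6 were tested: 2 (33.3%) were higher, 2 lower and 2 did not pass, close to the 35.1% and 35.9% among all tested genes. Their median log2 fold change was 0.07, and SPARC, PDGFRB and PMP22 had at most 18 counts in any library. BLOC1S1, the most general of these substrates, had 629 and 650 counts against 430 and 431, and its log2 fold change was -0.59 with an SE of 0.122 (edgeR adjusted p 5.74e-05). SCARA3, a scavenger receptor, was at 51.35 ± 2.78 CPM in the controls against 30.3 ± 0.0561 CPM, and its log2 fold change was -0.76 with an SE of 0.0514 (edgeR adjusted p 1.77e-15). TNFRSF10B, the death receptor DR5, was at 34.2 ± 1.66 CPM against 101.4 ± 0.798 CPM, and its log2 fold change was 1.57 with an SE of 0.0430 (edgeR adjusted p 7.28e-27), and HGSNAT, a lysosomal enzyme, was at 0.24.

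ATF6 is one of several proteins that the site-1 and site-2 proteases cut, and the others were read with their cofactors. Of 9 genes 8 were tested: 2 were higher, 4 lower and 2 did not pass, with a median of -0.15, where 35.1% of all tested genes were higher and 35.9% lower. INSIG1, which holds the SREBP precursors in the ER and is itself an SREBP target, had 2144 and 2148 counts against 487 and 489, and its log2 fold change was -2.16 with an SE of 0.0823 (edgeR adjusted p 1.33e-22). INSIG2, its relative, was at 0.42 (SE 0.0952, edgeR adjusted p 0.000185), and GNPTAB, a site-1 protease substrate needed for lysosomal enzyme sorting, at -0.40 (SE 0.0629, edgeR adjusted p 6.55e-07). The other higher gene of this list was CREB3L1, at 0.87 as given above. The precursors SREBF1 and SREBF2 were at -0.39 and -0.31, and the escort SCAP at 0.04 and the site-1 protease cofactor SPRING1 at 0.01 did not pass. Of the 6 partners and targets of the CREB3 factors, 5 were higher and 1 lower, with a median of 0.60, beside the same 35.1% and 35.9% of all tested genes. Among the higher genes, HERPUD1 (1.70) is also in the ATF6 target list. SEC24D, a COPII coat subunit and CREB3L2 target, was at 0.74 and is also in the XBP1 target list. HCFC1, the nuclear cofactor that CREB3 binds, was at -0.61 (SE 0.0403, edgeR adjusted p 1.03e-15).

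**Figure D4:**
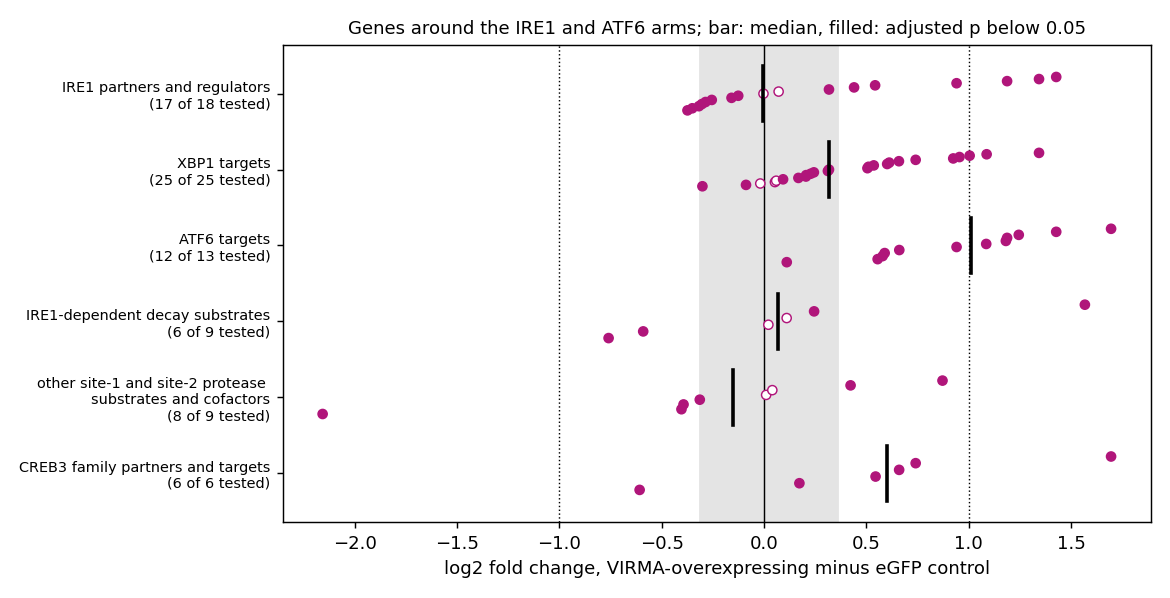
Log2 fold change (VIRMA-overexpressing minus eGFP control) of each tested gene in the 6 lists, filled where the edgeR adjusted p was below 0.05, with the median of a list as a black bar and the middle 50% of all tested genes in grey. All 12 ATF6 targets lie above 0, the IRE1 partners lie on both sides of it, and INSIG1 stands far to the left at -2.16.

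The genes beside the 10 on their chromosomes were read as well. Of 40 tested neighbours, 2 on each side of each gene, 1 was past both thresholds, STC2 beside CREBRF at 2.67. Among all tested genes 4.52% were past both thresholds as higher and 2.93% as lower. The median log2 fold change of the 40 was 0.08. The 3 genes whose CPM varied over the 4 libraries most like that of ERN1 (smallest distance between log2 CPM centred on its mean, genes at 5 CPM or more) were WSB1 (1.57), ARHGAP40 (1.62) and PLAC4 (1.56), at distances of 0.0363 to 0.0675. Those nearest to ATF6 were PLCB4 (0.92), MBD6 (0.94) and ARHGEF38 (0.91), at distances of 0.0248 to 0.0322. With 4 libraries in 2 groups this likeness is mostly that of the log2 fold changes given in parentheses.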

How the data were processed

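RNA was measured in 4 libraries of SKBR3 cells (2 eGFP control, 2 VIRMA-overexpressing). The authors trimmed reads with Trimmomatic 0.39, aligned them to hg38 with STAR 2.5.2a and counted them per gene with featureCounts, and deposited raw counts with exon coordinates and exonic length. The strand setting and the treatment of reads with several alignments are not given in the sources used here. The headers of the VIRMA-overexpressing columns hold only a number, so these columns were taken as the group left over, which the VIRMA counts check.

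Genes with RPKM above 1 in at least 2 libraries (12205) were tested in R 4.3.3 with edgeR 4.0.16 (quasi-likelihood test, TMM factors, a model holding group alone, Benjamini-Hochberg adjustment); the study's thresholds were an adjusted p of 0.05 and 2-fold. CPM and printed RPKM use library totals and TMM factors. The SE is the log2 fold change divided by the root of its F statistic. Tests were checked on simulated counts. Replicates of a group differed beyond sampling noise (chi-square per degree of freedom 5.08 and 4.31). Alternatives were DESeq2 1.42.0, limma-voom (limma 3.58.1), 3 scalings, 3 filters, a replicate block, and leaving out each library. The members and gene lists were chosen with earlier results of these data known. Named list genes are the 2 with the largest differences in each direction past the adjusted p, CREB3L1 among them. Other genes with values (SREBF1, SREBF2, SCAP, SPRING1, MAPK8, NCK1, RTCB, ERN2, CREB3L3, STC2) were added after their values were seen.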

Additional observations from a re-analysis of the deposited data

How the results depend on the processing

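Apart from leaving out libraries, 256 values held (direction, side of threshold, or within the replicate spread), 36 moved, 3 reversed, 4 were weaker and 2 stronger; the scalings and filters move the all-gene median by between -0.044 and 0.083, and most moves are of that size. ERN1, XBP1, ATF6, MBTPS1, CREB3L2, CREB3L4, CREBRF and VIRMA kept their direction and call under all alternatives run. ATF6B no longer passed under DESeq2 (0.092), filterByExpr (0.053), no filter (0.062) or a minimum of 10 counts in each library (0.067); for DESeq2 the cause was not tested. MBTPS2 passed with upper-quartile factors (0.22) and library totals (0.23). Genes past 2-fold numbered 2 with these scalings (ATF6 added) and 2 under each of the 3 filters (CREBRF added). Values in the order upper-quartile factors, library totals, filterByExpr, no filter and at least 10 counts follow for the list medians: 0.068, 0.080 (both reversed), -0.11, -0.099 and -0.095 for IRE1 partners; 0.39, 0.40, 0.27, 0.28 and 0.29 for XBP1 targets (0.312 with DESeq2 or its size factors); 1.084, 1.096, 0.97, 0.91 and 0.98 for ATF6 targets; 0.14, 0.15, 0.022, -0.63 (reversed, as rare genes enter) and 0.036 for decay substrates; -0.081, -0.069, -0.20, -0.025 and -0.18 for protease substrates; 0.67, 0.69, 0.56, 0.57 and 0.57 for CREB3 partners. XBP1 targets called lower were 1 with upper-quartile factors and with library totals.

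Without each library in turn, with the lone library assumed to vary like the other group, log2 fold changes ran from 1.566 to 1.644 for ERN1, 0.891 to 0.978 for ATF6, 0.0878 to 0.105 for ATF6B and -0.166 to -0.0489 for CREB3 (which passed without eGFP control replicate 2, giving 0 to 1 members called lower). List medians ran from -0.0615 to 0.0531 for IRE1 partners (reversed without eGFP control replicate 1, 0.030, and without VIRMA-overexpressing replicate 1, 0.053), 0.294 to 0.339 for XBP1 targets (1 to 2 called lower), 1.002 to 1.023 for ATF6 targets, 0.0434 to 0.0869 for decay substrates, -0.198 to -0.118 for protease substrates and 0.569 to 0.629 for CREB3 partners. The difference of the CREB3L2 to CREB3L4 ratio ran from -0.0149 to 0.0659. The labels do not say whether equal replicate numbers pair libraries. Deviations of the libraries numbered 1 from their group means correlated at 0.075 across genes, which does not settle it. With the replicate block no call changed, and ERN1 was at 1.607 and ATF6 at 0.937. Differences of the ratios were the same with CPM in place of RPKM. With 2 libraries a group, differences near 0.1 are at the limit of what could be called.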
